A study of Mus musculus with 9 samples.

Results

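The genes described here are 9 mouse genes. All of them but Rbpjl act in the nucleus at the end of the Notch pathway: Rbpj, the feedback gene Nrarp, the HES genes Hes1, Hes5 and Hes6, and the HEY genes Hey1, Hey2 and Heyl. Rbpjl, a paralogue of Rbpj, is listed with them but acts outside Notch signalling. They were taken as a list of names with no threshold on a measured value, though earlier results of these data were known when it was made. All 9 were found by Ensembl identifier among the 54232 genes of the count tables. RNA had been sequenced from cochlear ducts of embryonic day 14.5 (E14.5), with 1 library for each embryo and both ears of that embryo together, and the study asked what the transcriptional regulator PRDM16 does in the developing duct. There were 3 WT embryos (Prdm16 +/+), 3 Het embryos (Prdm16 cGT/+) and 3 Null embryos (Prdm16 cGT/cGT), littermates from crosses of cGT/+ parents on the FVB/NJ inbred background. The cGT allele is carried in every tissue of the embryo, so that Het and Null embryos lack normal Prdm16 on 1 or both copies also outside the duct.

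Notch signalling passes between touching cells. When a ligand of the Delta or Jagged family binds a Notch receptor, the receptor's intracellular part is cut free, enters the nucleus and joins the DNA-binding protein RBPJ, which then activates target genes, several HES and HEY repressor genes among them. In the cochlear duct, Notch signalling is known for its part in setting aside the prosensory domain and, later, in keeping supporting cells from becoming hair cells. RBPJL resembles RBPJ and binds similar DNA, but it does not join the Notch intracellular part, and it is best known from the acinar cells of the pancreas, where it works with PTF1A in the PTF1 complex.

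RBPJ binds sites with the core TGGGAA, so the members' promoters in the RefSeq table used here were searched for it. The table matched 6 of the 9 members (8 promoters of 300 bases, from 250 bases before to 50 after the RefSeq start, build GRCm38.p6), and 4 are shown because the results turn on these genes or, for Nrarp, because the core was not in this window. They are written 5′ to 3′ on the strand of the gene, and the capitals mark TGGGAA or its reverse complement TTCCCA.
Rbpjl promoter: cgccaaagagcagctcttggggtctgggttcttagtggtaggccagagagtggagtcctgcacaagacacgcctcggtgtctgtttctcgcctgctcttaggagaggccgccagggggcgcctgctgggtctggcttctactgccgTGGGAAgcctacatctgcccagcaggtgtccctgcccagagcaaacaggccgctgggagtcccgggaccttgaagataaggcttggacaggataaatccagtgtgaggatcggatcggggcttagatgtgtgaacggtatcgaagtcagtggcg
Hes5 promoter: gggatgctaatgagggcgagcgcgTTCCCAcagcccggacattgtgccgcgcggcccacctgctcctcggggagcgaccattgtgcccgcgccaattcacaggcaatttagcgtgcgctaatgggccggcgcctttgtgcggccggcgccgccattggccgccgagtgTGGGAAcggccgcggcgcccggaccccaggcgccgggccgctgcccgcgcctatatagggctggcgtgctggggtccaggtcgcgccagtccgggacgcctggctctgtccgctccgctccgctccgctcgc
Hey2 promoter: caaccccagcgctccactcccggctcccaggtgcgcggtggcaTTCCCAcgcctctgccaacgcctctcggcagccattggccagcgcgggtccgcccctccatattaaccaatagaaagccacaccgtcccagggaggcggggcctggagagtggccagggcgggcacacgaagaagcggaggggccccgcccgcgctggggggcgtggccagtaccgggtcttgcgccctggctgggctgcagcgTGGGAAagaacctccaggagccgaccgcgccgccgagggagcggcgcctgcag
Nrarp promoter: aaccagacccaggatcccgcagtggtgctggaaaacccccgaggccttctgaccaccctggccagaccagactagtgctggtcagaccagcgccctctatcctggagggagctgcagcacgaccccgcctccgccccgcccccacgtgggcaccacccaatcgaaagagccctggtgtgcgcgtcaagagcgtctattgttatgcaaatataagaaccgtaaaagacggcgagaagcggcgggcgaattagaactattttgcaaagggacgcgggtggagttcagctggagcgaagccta

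The Rbpjl promoter (chr2:164402944-164403243, plus strand) held 1 TGGGAA, beginning at position -104 from the start. The Hes5 promoter (chr4:154960673-154960972, plus strand) held 2, at positions -226 on the opposite strand and -82 on the gene's strand. The Hey2 promoter (chr10:30842734-30843033, minus strand) also held 2, at positions -207 on the opposite strand and -3 on its own. Neither the Nrarp promoter (chr2:25180508-25180807, plus strand) nor either of the 2 Hes6 promoters contained these letters on either strand, while the 2 overlapping Rbpj promoters held 2 and 1. Over all 32544 promoters of this length, 25.4% had at least 1 TGGGAA on either strand and 3.80% had 2 or more. CACGTG, a form of E-box that HES and HEY proteins can bind, was found in 7.17% of all promoters and among the members only in that of Nrarp. CACNAG, the N-box of HES proteins, was in 42.6% of all promoters, and in those of Rbpjl, Nrarp and the second of Hes6. CANNTG, the E-box core, was in 72.3% of all promoters and matches CACGTG too. These matches describe letters in a window and not bound sites.

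The libraries held 24095322 to 30819118 counted reads. Prdm16 checked the labels: its reads numbered 6076, 5030 and 5422 in WT, 3766, 3404 and 3860 in Het, and 574, 591 and 654 in Null embryos, so that the Null level was 11.6% of the WT level. Levels below are CPM (read counts scaled to the library's total and between libraries by TMM). Fold changes are log2 values from edgeR's quasi-likelihood test of 2 genotypes at a time, and a gene was called when its Benjamini-Hochberg adjusted p over all tested genes was under 0.05 and its log2 fold change was over 0.5 in size. The libraries also differed in tissue. The summed level of 9 periotic mesenchyme markers was 557, 1045 and 106 CPM in WT embryos 1 to 3, 44.0 to 93.7 CPM in Het embryos, and 60.5, 32.1 and 1425 CPM in Null embryos 1 to 3. WT 1, WT 2 and Null 3 therefore stood apart from the other 6 libraries. These were bulk samples, in which fewer cells of a type and less RNA per cell cannot be told apart.

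Between Null and WT, 1 of the 9 members was called, Rbpjl, which rose about 9-fold. Of all 17168 genes tested, 0.92% were called higher and 0.786% lower, or 1.71% either way. Between Het and WT no member was called by edgeR, against 0.151% of 17269 genes tested. The same count came from DESeq2 and limma-voom, and 3 members (Hey1, Hey2 and Rbpj) had an unadjusted p under 0.05, a limit that 13.1% of tested genes passed. Between Null and Het, 8 members could be tested and 1, again Rbpjl, was called higher, against 0.293% of 17067 genes called higher and 0.615% either way. The Null minus WT and Null minus Het comparisons share the Null embryos, and those of WT likewise enter 2 of the comparisons. Hes5 was left out of the last one because its reads were too few, and it passed the filter of the other 2 only through the WT embryos. The median log2 fold change of the members was 0.18 between Null and WT, 0.20 between Het and WT and 0.21 between Null and Het, where the medians of all tested genes were 0.01, 0.00 and 0.01. The first 2 of these member medians include Hes5.

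**Figure D1:**
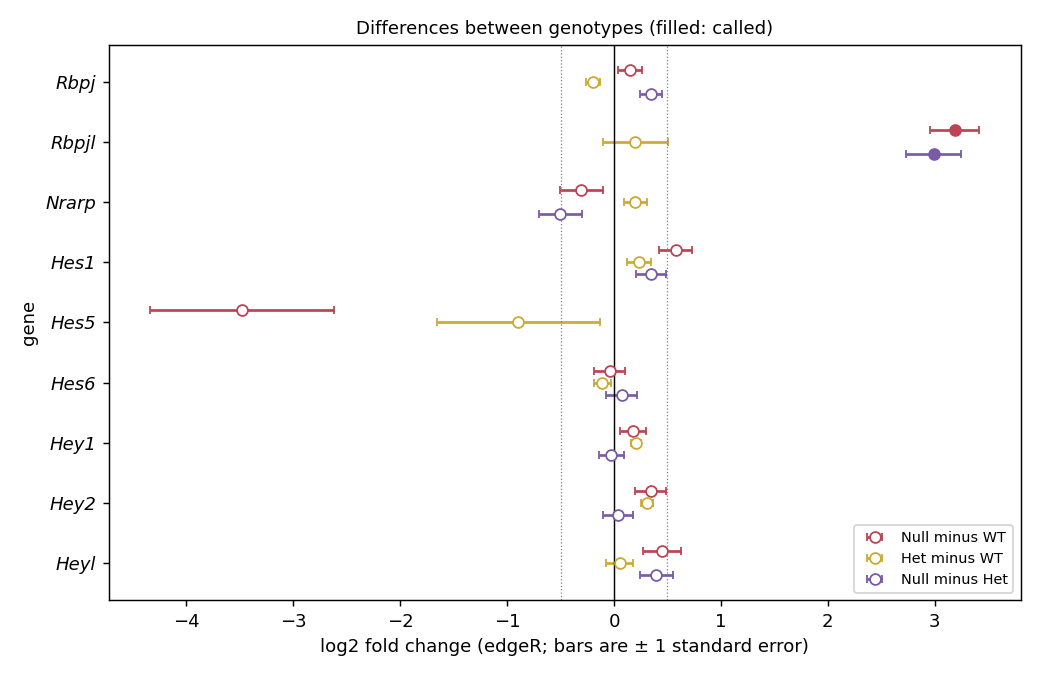
Log2 fold change of each member (horizontal axis) in the 3 comparisons, with bars of 1 standard error, dotted lines at 0.5 and -0.5, and filled points for calls. Rbpjl lies near 3 in both comparisons with Null embryos, Hes5 lies at -3.48 with the widest bars, and the other members lie between -0.50 and 0.58.

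In the WT duct the members differed widely in level. Per kilobase of exon (RPKM), Hey1 was highest at 43.5 ± 1.83 and Hes6 next at 34.0 ± 1.96 (SD, n = 3). Hey2 (11.5 ± 0.497) and Hes1 (10.1 ± 1.32) were next to each other in this order and their WT ranges overlapped. Nrarp (3.79), Heyl (3.33) and Rbpj (3.06) lay close together, with the range of Heyl overlapping those of its 2 neighbours. Hes5, at 0.435, and Rbpjl, at 0.145, were the lowest, and the ranges of the other neighbours in this order did not overlap. In Het embryos the order was the same. In Null embryos Hes1 (15.2 ± 2.39) and Hey2 (14.7 ± 3.01) had traded places within overlapping ranges, Heyl (4.55), Rbpj (3.40) and Nrarp (3.08) followed, and Rbpjl (1.33) stood above Hes5 (0.032).

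Rbpj (ENSMUSG00000039191, chromosome 5, 53466152 to 53657362, plus strand) encodes the DNA-binding partner of the Notch intracellular part, which also holds corepressors at its sites when Notch is silent. Its level was 40.1, 37.1 and 39.9 CPM in WT, 34.7, 34.1 and 33.7 CPM in Het, and 43.2, 49.0 and 37.8 CPM in Null embryos. All 3 Het embryos lay below all WT and all Null embryos, and the WT and Null ranges overlapped. The log2 fold change was -0.19 ± 0.067 (SE) between Het and WT (edgeR adjusted p = 0.236), 0.15 ± 0.111 between Null and WT (edgeR adjusted p = 0.662) and 0.34 ± 0.105 between Null and Het (edgeR adjusted p = 0.285), so none passed the test. The Null minus WT value ran from 0.055 (without Null 2) to 0.24 (without Null 3) when each embryo was left out in turn. A processed pseudogene on chromosome 6, Rbpj-ps3, took 201 to 281 reads per library, which was 13.9% to 22.3% of the reads of both. Reads of near-identical copies can be split by the counting, so the level of Rbpj is uncertain to a degree that was not measured.

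Rbpjl (ENSMUSG00000017007, chromosome 2, 164403141 to 164415448, plus strand) encodes the paralogue that acts outside Notch signalling. Its reads numbered 22, 22 and 24 in WT, 28, 20 and 28 in Het, and 148, 245 and 211 in Null embryos. These were 0.815, 0.863 and 0.814 CPM in WT, 1.12, 0.721 and 1.02 CPM in Het, and 6.11, 7.91 and 8.84 CPM in Null embryos. The lowest Null embryo stood far above the highest of the other 6, whereas the Het and WT ranges overlapped. The mean rose from 0.831 ± 0.028 to 7.62 ± 1.39 CPM between WT and Null (SD, n = 3), a ratio of 9.17, and was 7.97 times that of Het embryos. The log2 fold change was 3.19 ± 0.228 between Null and WT (edgeR adjusted p = 0.00145) and 2.99 ± 0.258 between Null and Het (edgeR adjusted p = 0.00356). Among the 158 genes called higher in Null than in WT embryos, Rbpjl ranked 7 by fold change. The Het minus WT difference was 0.20 ± 0.304 (edgeR adjusted p = 0.836), so its error allowed neither a clear rise nor a clear lack of one.

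The rise of Rbpjl stood in every setting that was tried. Leaving out each embryo in turn gave 3.07 to 3.32 between Null and WT (edgeR adjusted p from 0.00174 to 0.0181). With a term for the mesenchyme marker sum it was 3.25 (edgeR adjusted p = 7.12e-04), and over the 6 libraries low in mesenchyme markers it was 3.11 (edgeR adjusted p = 0.00598), both settings chosen after seeing the data. In that last setting WT was represented by 1 embryo, assumed to vary like the others. Even so, Rbpjl stayed the scarcer paralogue: for each 100 Rbpj reads there were 2.03 to 2.32 Rbpjl reads in WT, 2.12 to 3.24 in Het, and 14.1, 16.2 and 23.4 in Null embryos. Per length, Rbpjl in Null embryos reached 1.33 RPKM against 3.40 RPKM for Rbpj.

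**Figure D2:**
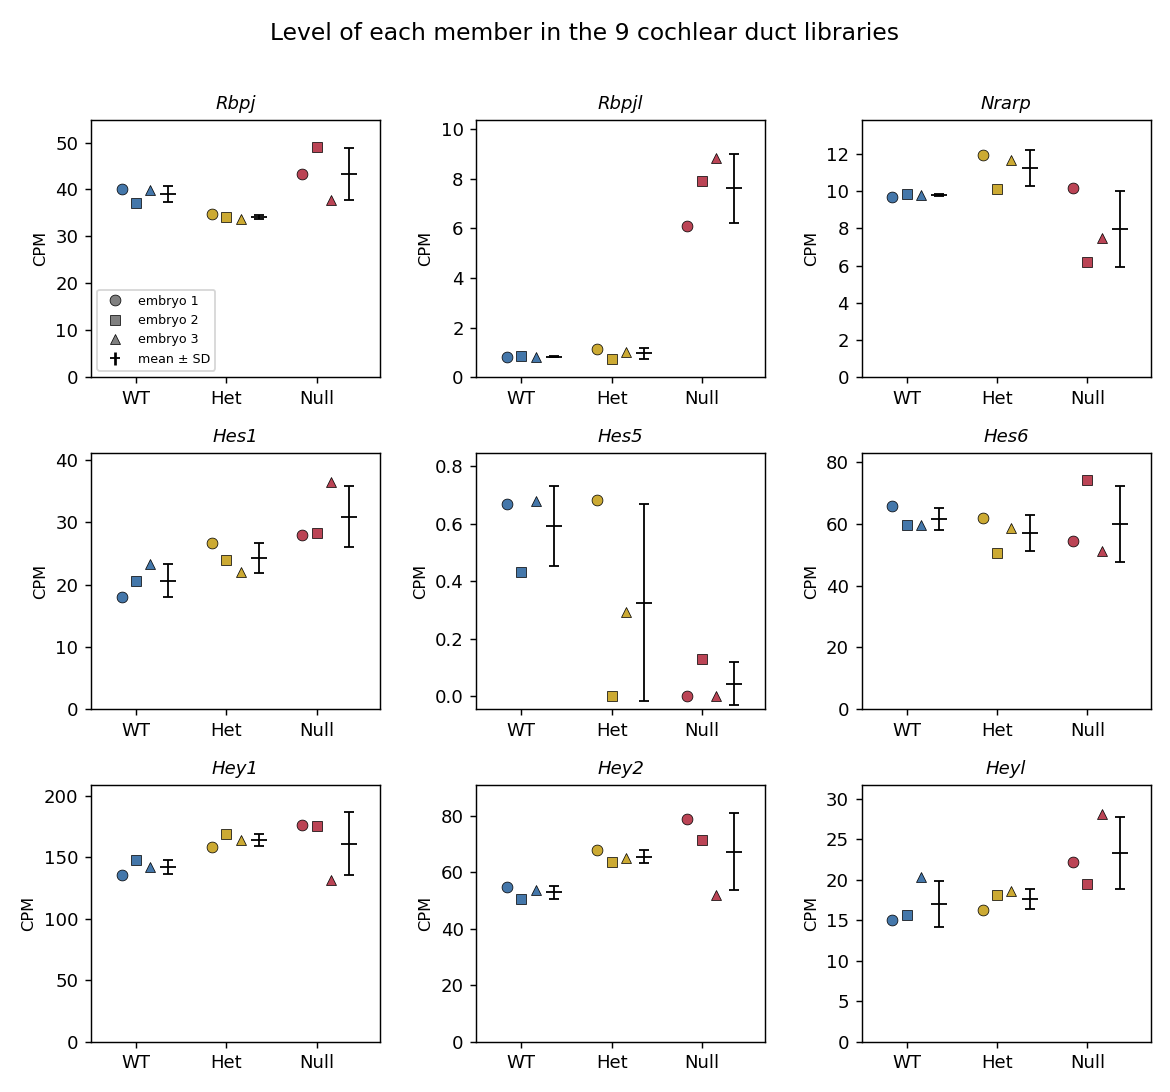
Level of each member in CPM (vertical axis, from 0 except for Hes5, whose axis begins just below 0) in the 3 WT, 3 Het and 3 Null embryos, with the mean and SD beside each group. The 3 Null embryos lie at 6.11 to 8.84 CPM for Rbpjl, above all others, and at 0 to 0.129 CPM for Hes5, below all WT embryos.

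Rbpjl overlaps a gene of the opposite strand, Matn4, which encodes matrilin-4, a protein of the extracellular matrix. The 2 genes share 149 exonic bases. Whether reads were counted by strand is not given in the sources used here, so reads of these bases cannot be told apart. Matn4 had 15.2, 26.2 and 9.16 CPM in WT, 16.6, 14.2 and 9.29 CPM in Het, and 70.6, 78.2 and 294 CPM in Null embryos. Its ranges were apart as well, and Null 3, the library rich in mesenchyme markers, held by far the most. Matn4 differed by 3.13 ± 0.637 between Null and WT (edgeR adjusted p = 0.0604, not called) and was called between Null and Het (3.47, edgeR adjusted p = 0.0456). The number of Rbpjl reads for each 100 Matn4 reads was 5.37, 3.29 and 8.89 in WT, 6.78, 5.08 and 11.0 in Het, and 8.65, 10.1 and 3.01 in Null embryos. This ratio therefore did not separate the genotypes, and Null 3, with 7018 Matn4 reads against 2423 in Null 2, had 211 Rbpjl reads against 245.

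On the Matn4 side the next gene with enough reads was Slpi, an inhibitor of secreted proteases, with 0.259 to 0.667 CPM in WT, 0.397 to 0.843 in Het, and 1.90, 3.07 and 7.96 CPM in Null embryos. It differed by 3.15 ± 0.607 between Null and WT and just missed the threshold (edgeR adjusted p = 0.0503). Kcns1, a modulatory potassium channel subunit farther along on that side, was called higher (2.09 ± 0.367, edgeR adjusted p = 0.0359). On the other side Sdc4, a cell-surface proteoglycan, differed by -0.20 ± 0.110 (edgeR adjusted p = 0.538), and Sys1, a protein of the Golgi, by -0.05. Of the 9 genes with a mean of at least 10 counts within 300 kb of Rbpjl, 1 was called higher and none lower. The groups of Null and WT embryos were apart, with Null higher, for 3 of the 9, against 9.7% of all genes tested, and with Null lower for 1, Sdc4 (122 to 132 CPM in WT and 91.5 to 121 CPM in Null embryos). Those 3, Matn4, Slpi and Kcns1, all lie toward lower coordinates than Rbpjl, as does Stk4, a kinase of the Hippo pathway, whose groups overlapped (-0.09). All 3 were highest in Null 3. Whether they share anything with Rbpjl beyond position was not tested.

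**Figure D3:**
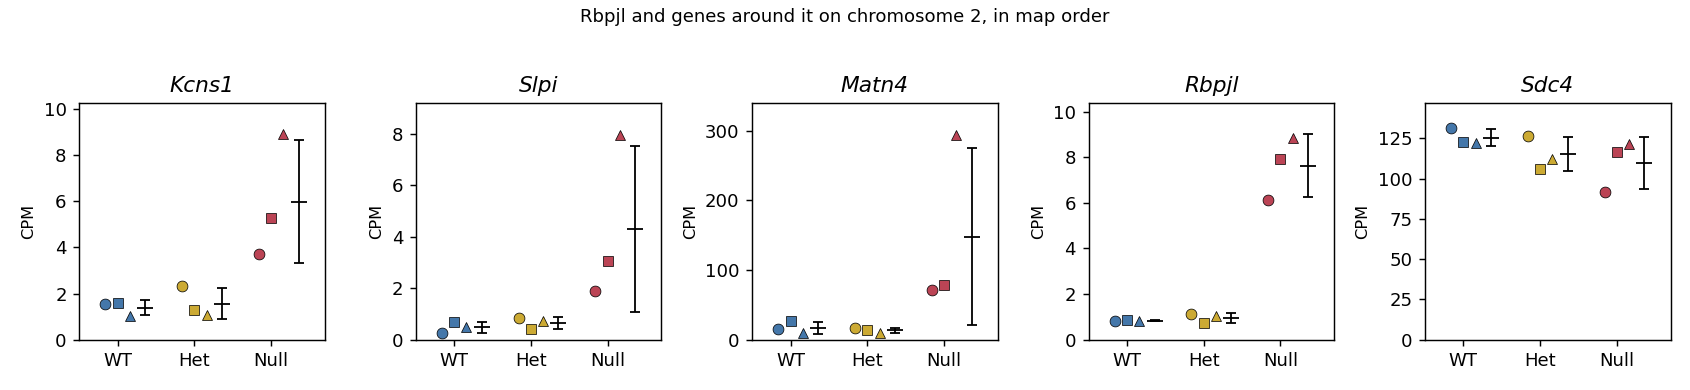
CPM (vertical axis, from 0) of Rbpjl and 4 genes around it, in their order along chromosome 2, for the 3 embryos of each genotype, with mean and SD. Matn4, Slpi and Kcns1 are highest in Null 3, whereas Rbpjl lies at 6.11 to 8.84 CPM in all 3 Null embryos and Sdc4 is slightly lower in Null than in WT embryos.

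In the pancreas RBPJL acts with PTF1A and an E protein. No read of Ptf1a was counted in any of the 9 libraries. For single libraries, 3 reads, the most that a count of 0 allows, correspond to 0.0973 to 0.125 CPM. The E proteins Tcf3, Tcf4 and Tcf12, which pair with many tissue-specific factors, were at 146 CPM or more in every library, and none was called in any comparison by edgeR, DESeq2 or limma-voom. Tcf12 had the largest difference between Null and WT (-0.19, edgeR adjusted p = 0.622). Of 17 acinar genes of the pancreas, 10 had no more than 3 reads in any library, 3 were tested and none was called in any comparison by edgeR, DESeq2 or limma-voom, or had an unadjusted p under 0.05 between Null and WT. The tested ones included Ctrl, a chymotrypsin-like protease, at 0.34 ± 0.324 between Null and WT. Between Null and Het, 1 of the 3 tested acinar genes had an unadjusted p under 0.05 in edgeR, against 11.4% of all genes tested. All 3 had a higher estimate in Null than in WT (median 0.13) and than in Het (median 0.19). At this depth no acinar gene was thus called along with Rbpjl, while most were below the level at which a change could be seen.

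The genes most like Rbpjl over the 9 libraries, by Pearson correlation of log2 CPM among 17796 genes, were Vstm2b (0.983), Fhl1 (0.982), Stk39 (0.979), Gm16758 (0.978) and Chrdl1 (0.974). The points of a library share its depth and its tissue, and no test was made. Chrdl1, an antagonist of bone morphogenetic proteins, had 16.4 to 18.8 CPM in WT, 22.4 to 27.1 in Het and 67.9 to 74.6 CPM in Null embryos. Fhl1, a LIM-domain protein of which 1 form binds RBPJ, had 14.6 to 16.1 CPM in WT, 14.6 to 15.3 in Het, and 23.3, 27.7 and 25.6 CPM in Null embryos. Its rise was 0.72 ± 0.114 between Null and WT (edgeR adjusted p = 0.0242).

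Nrarp (ENSMUSG00000078202, chromosome 2, 25180758 to 25183339, plus strand) is switched on by Notch and limits it by binding the Notch and RBPJ complex. Its level was 9.71, 9.85 and 9.80 CPM in WT, 12.0, 10.1 and 11.7 CPM in Het, and 10.2, 6.17 and 7.50 CPM in Null embryos. The 3 Het embryos were above all WT embryos, and the Null embryos spread across and below them, Null 1 lying above all WT embryos. The log2 fold change was -0.30 ± 0.201 between Null and WT (edgeR adjusted p = 0.610), 0.20 ± 0.109 between Het and WT (edgeR adjusted p = 0.486) and -0.50 ± 0.201 between Null and Het (edgeR adjusted p = 0.403). Between Null and WT, leaving out each embryo in turn gave -0.52 (without Null 1) to -0.14 (without Null 2). An antisense gene that shares 2051 of its exonic bases, Gm38287, had no reads.

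Hes1 (ENSMUSG00000022528, chromosome 16, 30064384 to 30067796, plus strand) encodes a basic helix-loop-helix repressor that is a widely used readout of Notch. It had 18.0, 20.5 and 23.4 CPM in WT, 26.7, 24.0 and 22.0 CPM in Het, and 27.9, 28.3 and 36.5 CPM in Null embryos. All Null embryos lay above all WT and all Het embryos, and Het and WT overlapped. The difference of 0.58 ± 0.151 between Null and WT did not pass the test in edgeR (adjusted p = 0.145). It did in DESeq2 (0.58, adjusted p = 0.0128) and with a term for the sex of the embryos (0.69, edgeR adjusted p = 0.0443). Null 3, the highest, was the mesenchyme-rich library, and WT 1 and WT 2, the lowest, were the others with high mesenchyme marker sums. Over the 6 libraries low in these markers, a setting chosen after seeing the data, the difference was 0.27. WT 3, the WT embryo with the most Hes1, was the only WT embryo in that setting. With a term for the marker sum over all 6 embryos, likewise added, the difference was 0.62 ± 0.149 (edgeR adjusted p = 0.0817). With Null 3 alone left out it was 0.44 (edgeR adjusted p = 0.151). The part of tissue makeup in the Hes1 values was not tested further.

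The genes around Hes1 are far away. Opa1, a mitochondrial fusion protein, lies 409500 bases before it and differed by -0.12 between Null and WT. On the other side Lrrc15, a leucine-rich repeat membrane protein 201506 bases away, had 0.431 to 0.741 CPM in WT, 1.57 to 2.31 CPM in Het and 3.60 to 4.91 CPM in Null embryos, with the 3 groups apart. It rose by 2.87 ± 0.300 on the log2 scale between WT and Null (edgeR adjusted p = 0.00504), and the Het minus WT difference was 1.79 (edgeR adjusted p = 0.0588). The genes most like Hes1 over the 9 libraries were Pxn (0.971), Col14a1 (0.965), Gm45353 (0.962), Scx (0.961) and Pvr (0.958), none of which was called between Null and WT.

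Hes5 (ENSMUSG00000048001, chromosome 4, 154960923 to 154962371, plus strand) encodes a HES repressor known to mark strong Notch signalling in the later cochlea. Its reads were few, 18, 11 and 20 in WT, 17, 0 and 8 in Het, and 0, 4 and 0 in Null embryos. In CPM these were 0.667, 0.431 and 0.679 in WT, 0.683, 0 and 0.293 in Het, and 0, 0.129 and 0 in Null embryos, where 3 reads stand for 0.125 CPM in Null 1 and 0.121 CPM in Null 3. The 3 Null embryos lay below the 3 WT embryos, and the Het embryos spanned the whole range of the 9. Over each genotype the 4 Null and 49 WT reads gave a ratio of 0.0839, with an exact interval of 0.0220 to 0.229 at 95% that covers counting error only. The fitted difference of -3.48 ± 0.862 rests on these few reads, and since the gene passed the filter only through the WT embryos it is given as a description. It was not called by edgeR (adjusted p = 0.121) and was past the threshold in DESeq2 (adjusted p = 0.0419) and limma-voom (adjusted p = 0.0412). The filter bears on the edgeR and limma-voom values. DESeq2 was run on genes with at least 1 count, without that filter, but its value rests on the same few reads. These values are no support for a difference. Over the alternatives that kept all embryos or used the 6 libraries, its adjusted p ranged from 0.0412 to 0.509. Without Null 2, which leaves no Null read, the fitted value depends on the prior count and is no bound.

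Hes5 lies on the same chromosome as Prdm16, starting 324050 bases beyond the end of that gene. The genes around Prdm16 were therefore looked at together. Of 24 genes with a mean of at least 10 counts within 500 kb of Prdm16, which leaves out Hes5 itself (below that mean), 1 was called lower between Null and WT and none higher. Over all tested genes 0.786% were called lower and 0.92% higher. The 1 was B230104I21Rik, which shares 109 exonic bases with Prdm16, at 0.778 to 1.65 CPM in WT and 0 to 0.0419 CPM in Null embryos. It passed the filter only through the WT embryos, so its call and its part in the count below are descriptions only. Plch2, a phospholipase C, just missed the fold needed for a call (-0.50 ± 0.094, edgeR adjusted p = 0.0456). Gm13111, 703 bases from Prdm16, was called lower between Null and Het (-0.61, edgeR adjusted p = 0.0481) but not between Null and WT (-0.65, edgeR adjusted p = 0.0811). For 4 of the 24, these 3 among them, the Null embryos lay below all WT embryos, where 9.25% of all tested genes did so. An opposite-strand gene that shares 433 exonic bases with Hes5, Gm20421, had 0 to 3 reads.

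Hes6 (ENSMUSG00000067071, chromosome 1, 91411483 to 91414038, minus strand) differs from its relatives in that it can counteract HES1 and is known from differentiating neurons and hair cells. It had 65.6, 59.4 and 59.5 CPM in WT, 61.7, 50.4 and 58.8 CPM in Het, and 54.3, 74.1 and 51.3 CPM in Null embryos. Null 2 was the highest of all 9 and the other 2 Null embryos were below every WT embryo, so the groups overlapped. The log2 fold change was -0.04 ± 0.142 between Null and WT (edgeR adjusted p = 0.931), -0.11 between Het and WT and 0.07 between Null and Het. Its sign depended on which embryo was left out, so no direction is given.

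The HEY genes encode repressors closely related to the HES family, and Hey1 and Hey2 are known from the prosensory domain. Hey1 (ENSMUSG00000040289, chromosome 3, 8663359 to 8667256, minus strand) had 135.9, 147.8 and 142.2 CPM in WT, 158.7, 169.1 and 164.1 CPM in Het, and 176.5, 175.7 and 131.2 CPM in Null embryos. All Het embryos exceeded all WT embryos. Null 1 and Null 2 exceeded every other embryo, whereas Null 3 was the lowest of the 9. The log2 fold change was 0.21 ± 0.046 between Het and WT (edgeR adjusted p = 0.0861) and 0.18 ± 0.121 between Null and WT (edgeR adjusted p = 0.622). The latter was 0.31 without Null 3 (edgeR adjusted p = 0.108), 0.31 over the 6 libraries low in mesenchyme markers (edgeR adjusted p = 0.345), 0.074 with a term for mesenchyme (edgeR adjusted p = 0.858) and 0.11 with one for sex (edgeR adjusted p = 0.846). Null 1 and Null 2 were the male Null embryos.

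Hey2 (ENSMUSG00000019789, chromosome 10, 30832359 to 30842801, minus strand) showed the same order of embryos in part. It had 54.7, 50.4 and 53.9 CPM in WT, 68.0, 63.5 and 65.1 CPM in Het, and 78.8, 71.3 and 52.1 CPM in Null embryos. Again every Het embryo was above every WT embryo and Null 1 and Null 2 were highest, with Null 3 among the WT embryos. The difference was 0.31 ± 0.056 between Het and WT (edgeR adjusted p = 0.0631), a fold below the size needed for a call, and 0.34 ± 0.147 between Null and WT (edgeR adjusted p = 0.403). Without Null 3 the latter was 0.50 (edgeR adjusted p = 0.0363), which passed. Over the 6 libraries low in mesenchyme markers it was 0.48 ± 0.133 (edgeR adjusted p = 0.162), and with the term for mesenchyme it was 0.20 ± 0.116 (edgeR adjusted p = 0.551). With the term for sex it was 0.23 ± 0.131 (edgeR adjusted p = 0.635).

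For the difference between Het and WT, DESeq2 gave Hey1 an adjusted p of 0.0233 and Hey2 one of 0.00323, at log2 fold changes of 0.20 and 0.30, so that both stayed short of the fold threshold. All 3 Het libraries were low in mesenchyme markers and 2 of the 3 WT libraries were high. All 9 mesenchyme markers had a lower estimate in Het than in WT, each with an unadjusted p under 0.05, none called by edgeR and 6 called by DESeq2. The part of mesenchyme in these differences cannot be told apart from genotype except through WT 3. In the fit over the 6 low libraries, Hey2 differed by 0.28 and Hey1 by 0.21 between Het and WT (edgeR adjusted p = 1.00 for both), with WT 3 as the lone WT embryo.

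Heyl (ENSMUSG00000032744, chromosome 4, 123233556 to 123249875, plus strand) encodes a HEY protein known from smooth muscle and pericytes as well as from Notch signalling elsewhere. It had 15.0, 15.7 and 20.3 CPM in WT, 16.3, 18.1 and 18.5 CPM in Het, and 22.2, 19.4 and 28.1 CPM in Null embryos. All Null embryos were above all Het embryos, but Null 2 was below WT 3. The difference was 0.45 ± 0.178 between Null and WT (edgeR adjusted p = 0.366) and 0.40 ± 0.154 between Null and Het (edgeR adjusted p = 0.386). Without Null 3 these were 0.29 (edgeR adjusted p = 0.435) and 0.24 (edgeR adjusted p = 0.495). Over the 6 low libraries the difference between Null and WT was 0.04, with WT 3, the WT embryo with the most Heyl, as the only WT embryo. With the term for mesenchyme the difference was 0.48 ± 0.176 (edgeR adjusted p = 0.277). The summed level of 9 markers of pericytes and smooth muscle was 64.2 to 103.9 CPM in WT, 52.6 to 66.7 CPM in Het, and 54.4, 60.6 and 245 CPM in Null embryos, highest in Null 3, which also had the most Heyl. The next highest sums were those of WT 2 (103.9 CPM) and WT 1 (87.8 CPM), the 2 libraries with the least Heyl. Their part in the Heyl values was not tested.

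**Figure D4:**
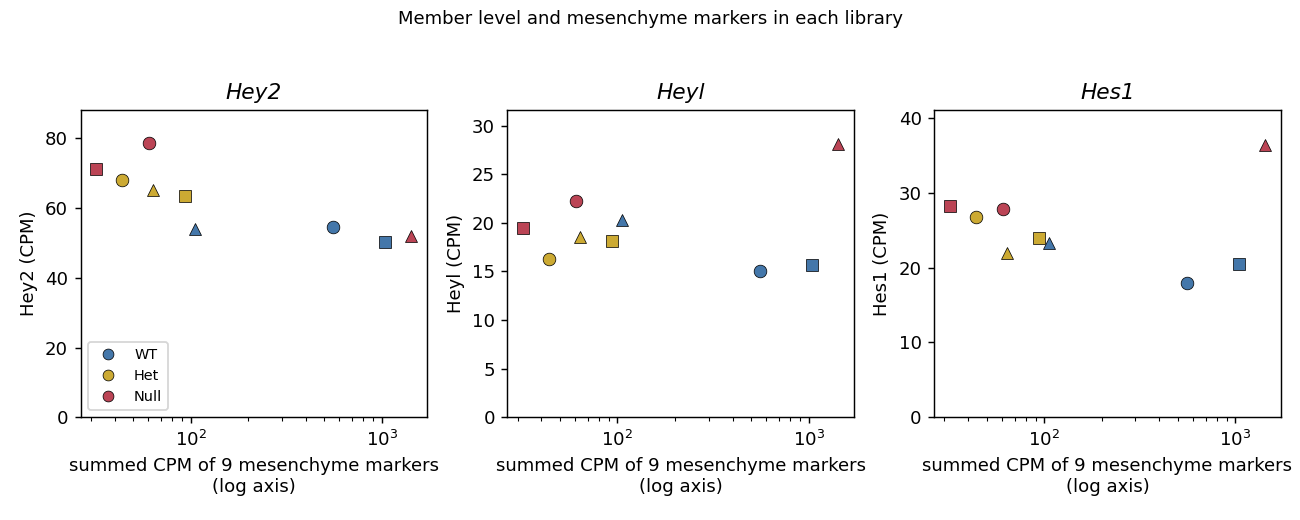
CPM of Hey2, Heyl and Hes1 (vertical axes, from 0) against the summed CPM of 9 mesenchyme markers (log axis) in each of the 9 libraries, coloured by genotype. Null 3, at 1425 CPM of markers, had the lowest Hey2 of the Null embryos (52.1 CPM) and the highest Heyl (28.1 CPM) and Hes1 (36.5 CPM) of all 9, whereas WT 1 and WT 2, also rich in markers, had the lowest Heyl (15.0 and 15.7 CPM) and Hes1 (18.0 and 20.5 CPM).

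Across the members, the groups of Null and WT embryos did not overlap for 2 of the 8 members other than Hes5 (Hes1 and Rbpjl, both higher), where 19% of all tested genes did not. For Het against WT this held for 4 of 9 (Hey1, Hey2 and Nrarp higher, Rbpj lower), against 18% of tested genes. For Null against Het it held for 4 of 8 (Hes1, Heyl, Rbpj and Rbpjl, all higher in Null), against 18.1%, and 5 of the 8 (these and Nrarp) had an unadjusted p under 0.05, against 11.4%. Unadjusted p-values under 0.05 between Null and WT were found for 4 of the 8 members other than Hes5 (Hes1, Hey2, Heyl and Rbpjl) and for 12.2% of all tested genes. Hes5 also met both of these marks between Null and WT, but is left out of these counts because it entered the test only through the WT embryos. The Het mean lay between the WT and Null means for 4 of the 8 members other than Hes5, namely Hes1, Hey2, Heyl and Rbpjl, and for 39.0% of the genes tested. It did so for Hes5 too. Only means are compared here: the Het range overlapped that of WT for Hes1, Heyl and Rbpjl, and that of Null for Hey2.

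The rest of the pathway was taken from 7 lists with 58 genes, of which 2 were called higher and none lower between Null and WT by edgeR, against 0.92% and 0.786% of all genes tested. Unadjusted p-values under 0.05 in that comparison were found for 5 of the 58, against 12.2% of all genes tested. No gene of these lists was called between Het and WT, where 13 of the 58 had an unadjusted p under 0.05, against 13.1% of all genes tested, and DESeq2 called 2 (Lfng higher and Dll4 lower). By edgeR 1 was called higher between Null and Het. The 2 were Lfng, a glycosyltransferase that modifies Notch receptors, and Fhl1 of the corepressor list, described above. Lfng had 16.3, 9.92 and 11.8 CPM in WT, 24.0, 18.1 and 22.5 CPM in Het, and 34.6, 36.6 and 32.0 CPM in Null embryos, with the 3 groups apart from each other. Its difference was 1.44 ± 0.180 between Null and WT (edgeR adjusted p = 0.00869). The median over the 58 genes was -0.03 between Null and WT, 21 of them being positive and 37 negative.

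By role, none of the 5 ligands was called in any comparison by edgeR, and 2, 3 and 1 of them had an unadjusted p under 0.05 between Null and WT, Het and WT, and Null and Het. Jag1, the ligand of the prosensory domain, had 385 to 419 CPM in WT, 466 to 514 CPM in Het and 446 to 600 CPM in Null embryos (0.36 ± 0.117 between Null and WT, edgeR adjusted p = 0.247). Dll4, a ligand known from endothelium, had 2.93 and 3.14 CPM in WT 1 and WT 2 and 2.39 CPM in Null 3, and 0.226 to 0.712 CPM in the other 6. The same 3 libraries held 81.5 to 107 CPM of 11 endothelial markers in sum, against 10.2 to 14.8 CPM in the others. None of the 4 receptors, the 8 genes of the proteases that release the intracellular part, the 8 coactivators or the 12 modulators of endocytosis and ubiquitin transfer was called between Null and WT by edgeR, DESeq2 or limma-voom, or had an unadjusted p under 0.05 there. Among the coactivators, 7 of 8 had a lower estimate in Null than in WT, with a median of -0.12.

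Of 6 further genes of the same bHLH family, Hes2, Hes3 and Helt had no more than 3 reads in any library, and Hes7, Bhlhe40 and Bhlhe41 were tested without a call by edgeR, DESeq2 or limma-voom, none with an unadjusted p under 0.05 between Null and WT. Between Null and Het all 3 had a higher estimate in Null, and Bhlhe40 (1.67) and Bhlhe41 (0.73) had an unadjusted p under 0.05. Bhlhe40, a repressor linked to the circadian clock and hypoxia, had 11.6, 26.2 and 62.7 CPM in Null embryos against 8.41, 22.6 and 14.6 CPM in WT, again highest in Null 3 (edgeR adjusted p = 0.495). HES and HEY proteins repress proneural genes. Of 10 proneural and related genes, 5 were tested, none was called by edgeR, and 1, Id4, was called between Null and WT by DESeq2. Atoh1, the hair cell determinant, had 5.18 to 7.12 CPM in WT and 4.46 to 6.83 CPM in Null embryos (-0.29 ± 0.234, edgeR adjusted p = 0.688). Id4, an inhibitor of bHLH factors, had 47.9 to 59.3 CPM in WT and 72.7 to 90.3 CPM in Null embryos (0.55 ± 0.115, edgeR adjusted p = 0.0653).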

How the data were processed

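Cochlear ducts of 9 E14.5 embryos were sequenced (TruSeq mRNA, 50-base single reads). The authors deposited raw counts of reads per Ensembl gene, 1 table a library, with no normalization. The submitters' processing notes name cutadapt 1.13, STAR, HTSeq 0.6.1p1 and DESeq2 with build mm10, and the methods name Cufflinks for annotation. The annotation release, the strand setting and any removal of multiply mapped reads are not given in the sources used here. All 37 mitochondrial genes were at 0 counts. Names, coordinates and exon lengths came from GENCODE vM21 (GRCm38, the same assembly as mm10), which matched 54165 of 54232 identifiers.

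Each pair of genotypes (3 embryos each) was fitted with edgeR 4.0.16 (R 4.3.3) after filterByExpr (minimum count 10) and TMM, without covariates, and p-values were adjusted by Benjamini-Hochberg over all genes tested. SE values are the log2 fold change over the root of the F statistic. CPM and RPKM used 1 TMM over the 9 libraries, and the prior count for correlations was 2. The smallest exact permutation p of 3 against 3 cannot reach the threshold, so none is given. On simulated counts for Null and WT (17168 genes), edgeR called 47 of 100 genes changed by a log2 fold of 1 and 83 of 100 changed by 2, with 6 false calls. DESeq2 1.42.0 and limma 3.58.1 (voom), RLE factors, other filters, 1 fit of 9 libraries, sex (from Y-linked reads), the replicate number and leaving out embryos were tried, besides 2 settings on mesenchyme added after seeing the data. Named genes were the members and Prdm16, called genes of the lists or else the 2 with the largest fold, the nearest genes with a mean of 10 counts beside Rbpjl and Hes1, the 5 most correlated genes, and overlapping genes and pseudogenes. Others named (Kcns1, Stk4, Jag1, Tcf3, Hes7, Plch2, Gm13111, Gata2) were chosen after their values were seen. The members and lists were chosen with earlier results of these data known. Intervals and floors cover counting error only.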

Additional observations from a re-analysis of the deposited data

How the results depend on the processing

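Rbpjl was called higher in Null than in WT and in Het embryos in all 8 alternative settings chosen at the start, in both added ones and without each embryo in turn. Members called between Null and WT numbered 3 in DESeq2 (Hes1 0.58, Hes5 -3.65 and Rbpjl), 2 in limma-voom (Hes5 -3.93), 2 with the sex term (Hes1 0.69) and 1 to 2 without each embryo (2 without Null 3, adding Hey2 at 0.50). Over all genes, 618 of 31997 were called in DESeq2 and 300 of 17168 in limma-voom. With the sex term 214 of 17168 were called, and without Null 3 446 of 17768. Hes5 entered limma-voom only through the WT embryos. No member was called between Het and WT in any setting. Calls over all genes were less stable. Between Null and WT there were 293, and 618 in DESeq2, 476 with genes of at least 1 count, 468 in the 9-library fit and 68 (without WT 2) to 446 (without Null 3) without each embryo. Between Het and WT there were 26, and 317 in DESeq2, 11 in limma-voom, 684 with at least 1 count, 0 in the 9-library fit, 53 with the sex term, 10 with the mesenchyme term, 14 over the 6 low libraries, and 0 to 505 (without WT 3) without each embryo. Between Null and Het there were 105, and 358 in DESeq2, 366 with at least 1 count, 164 in the 9-library fit, 255 with the mesenchyme term, 201 over the 6 low libraries and 12 to 182 without each embryo. The causes were not tested.

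Small differences changed sign. Hes6 between Null and WT was 0.12 over the 6 low libraries and -0.22 to 0.062 without each embryo, and between Null and Het -0.015 with the sex term and -0.11 to 0.17. Heyl between Het and WT was -0.20 with the mesenchyme term and -0.20 over the 6 low libraries, and -0.030 to 0.20 without each embryo. Between Null and Het, Hey1 was 0.044 with the mesenchyme term, 0.11 over the 6 low libraries and -0.092 to 0.10 without each embryo, and Hey2 was -0.079 with the sex term and -0.083 to 0.20. With the replicate number as a block, calls numbered 133 between Null and WT, 197 between Het and WT and 52 between Null and Het. Libraries of the same number did not deviate together on average (mean correlation -0.00678, from -0.284 to 0.202). Since the libraries also differed in mesenchyme, these correlations cannot tell whether the numbers pair the embryos. The block changed no member's call. Hes5 and most acinar genes had few or no reads, and each group held 3 embryos.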

Other observations

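The lists that mark the cell types of the duct moved in different ways between Null and WT embryos. Of 11 genes of Kölliker's organ, the epithelium next to the prosensory domain in which Prdm16 is found, 9 were called lower by edgeR (Fgf10, Tecta, Efhd1, Clic6, Snap91, Rgcc, Spock1, Itga8 and Gsn), and their sum was 4088 to 5084 CPM in WT, 3791 to 4779 CPM in Het and 2169 to 2443 CPM in Null embryos. The list was drawn from genes the study described and is not independent evidence of its direction, since the study singled out several of them in these libraries. Of 10 prosensory genes, Fgf20 (1.35 ± 0.204, edgeR adjusted p = 0.0194) and Cdkn1b (0.52 ± 0.088, edgeR adjusted p = 0.0304) were called higher. The study had singled out both as higher in these libraries, so these calls are not independent evidence either. Of 6 outer sulcus genes, Tac1, a neuropeptide precursor, was called lower (-1.27), while the other 5 had higher estimates in Null embryos, 2 of them with an unadjusted p under 0.05, and DESeq2 called 1, Gata2, higher. The sum of the 6 was 1281 to 1464 CPM in WT and 1467 to 2058 CPM in Null embryos. Of 7 roof genes, none was called by edgeR, although 5 had an unadjusted p under 0.05 and DESeq2 called 1, Oc90.

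Of 7 hair cell genes, Myo7a, a myosin of hair bundles, was called higher (edgeR adjusted p = 0.0257), with 14.4 to 18.7 CPM in WT and 29.2 to 43.9 CPM in Null embryos, while 4 of the 6 tested had a lower estimate in Null (median -0.10). Of 9 neuronal genes, Stmn2, a microtubule regulator, was called lower between Null and WT (-2.96) and between Het and WT (-1.42), while 6 of the 8 tested had a higher estimate in Null than in WT (median 0.10). None of the lists for glia, mesenchyme, endothelium, pericytes and smooth muscle, or blood had a gene called between Null and WT by edgeR, where 4 of the 9 genes of pericytes and smooth muscle and none of the others had an unadjusted p under 0.05. DESeq2 called Acta2, an actin of smooth muscle, lower. The sum of the 7 blood markers was highest in WT 2 (120 CPM) and lowest in Het 1 (19.1 CPM). By Y-linked reads 1 WT, 1 Het and 2 Null embryos were male, the 2 being Null 1 and Null 2.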
